A study of Mus musculus with 20 samples.

Results

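The 10 Kupffer cell identity genes Clec4f, Vsig4, Marco, Cd5l, Timd4, Cd163, Clec1b, Adgre1, Folr2 and Csf1r were followed in 14 mouse liver libraries and 6 libraries of RAW264.7, an established mouse macrophage-like line. They were chosen by symbol, as genes known to mark the resident macrophages of the liver, and all 10 were found among the 24972 gene symbols of each table. The liver RNA came from whole tissue lysate after 6 weeks of feeding and fell into 4 groups. WT mice had the control diet (n = 4) or the alcohol diet (n = 4), and RageΔMye mice likewise had the control (n = 3) or the alcohol diet (n = 3). RageΔMye is read here as deletion in myeloid cells of Ager, which encodes the receptor RAGE. For the driver of the deletion and the strain and age of the mice nothing is given in the sources used here, and all 14 liver libraries are labelled male. The RAW264.7 cells, a single line labelled WT, were given BSA (n = 3) or a complex of [O] HMGB1, an oxidised alarmin, with IL1β (n = 3) for 6 hours. Nothing in the labels says that replicates came from separate animals or cultures, so p-values measure the spread between these libraries, which may be technical. Levels are in TPM, transcripts per fixed total of the library's transcripts, a unit meant to allow for gene length, and the number of reads behind a value is unknown.

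Kupffer cells line the liver sinusoids, where they clear bacteria, ageing red cells and debris from portal blood. They are seeded before birth and maintained by signals from their neighbours: CSF1 and IL34 act through Csf1r, and Notch ligands, TGF-β and bone morphogenetic proteins from sinusoidal endothelial and stellate cells induce their transcription factors, among them LXRα (Nr1h3) and ID3. Resident cells carry the lectin CLEC4F and the phosphatidylserine receptor TIM4, whereas monocytes that enter an injured liver lack TIM4 at first and acquire the resident programme only with time. In RNA from whole tissue, a fall of these transcripts through fewer Kupffer cells and a fall through less RNA per cell cannot be told apart.

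The members with the highest levels in WT liver on control diet were Clec4f, Cd5l and Vsig4, and their promoters are shown because the results below turn first on these genes. The sequences are from RefSeq on GRCm38.p6, each 300 bases long, from 250 bases before to 50 bases after the start of the gene, on the strand of the gene. Capitals mark each match to GAGGAA or its reverse complement TTCCTC, the core recognised by PU.1 (Spi1), the factor that defines the macrophage lineage. The window of Clec4f is chr6:83656067-83656366 on the minus strand, that of Cd5l chr3:87357631-87357930 on the plus strand and that of Vsig4 chrX:96293389-96293688 on the minus strand.
Clec4f: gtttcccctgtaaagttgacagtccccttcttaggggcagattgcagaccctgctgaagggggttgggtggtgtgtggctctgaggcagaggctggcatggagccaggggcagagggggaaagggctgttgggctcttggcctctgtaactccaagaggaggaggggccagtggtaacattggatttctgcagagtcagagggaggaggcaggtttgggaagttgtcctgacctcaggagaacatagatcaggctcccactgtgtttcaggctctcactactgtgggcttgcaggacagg
Cd5l: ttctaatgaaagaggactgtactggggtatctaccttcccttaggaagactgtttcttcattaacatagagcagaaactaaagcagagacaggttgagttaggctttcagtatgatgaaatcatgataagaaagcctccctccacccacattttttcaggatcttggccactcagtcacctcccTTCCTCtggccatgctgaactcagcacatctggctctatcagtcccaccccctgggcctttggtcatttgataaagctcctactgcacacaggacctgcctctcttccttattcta
Vsig4: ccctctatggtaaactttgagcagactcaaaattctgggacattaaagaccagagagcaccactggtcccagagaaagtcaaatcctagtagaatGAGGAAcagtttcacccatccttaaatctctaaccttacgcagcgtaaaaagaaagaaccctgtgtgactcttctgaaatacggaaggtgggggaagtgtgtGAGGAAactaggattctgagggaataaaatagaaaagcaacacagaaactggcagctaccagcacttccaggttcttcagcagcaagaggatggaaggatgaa
Vsig4 held 2 matches, 155 and 53 bases before the start, Cd5l held 1 on the reverse strand 66 bases before the start, and Clec4f held none. Of the 10 members 8 were matched to the promoter table, and 3 of these 8, Vsig4, Cd5l and Marco, held the motif. The motif was in 28.3% of all 32851 promoters of the same length. The MAF motif TGCTGAC (or GTCAGCA), present in 4.67% of promoters, was found only in that of Timd4. The SMAD box GTCTAGAC, its own reverse complement and present in 0.213% of promoters, was found in none of the 8. These matches describe letters in these windows and show nothing about binding.

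The WT, RageΔMye and RAW264.7 libraries differed in kind. Genes above 0 numbered 15113 to 15599 in WT, 7596 to 8502 in those labelled RageΔMye and 8630 to 9231 in RAW264.7. The value seen most often above 0 was 0.0576 to 0.0835 TPM in WT, but 14.4 to 20.5 TPM in those labelled RageΔMye and, for RAW264.7, 9.85 to 13.4 TPM. In WT all 14 housekeeping genes were above 0, while 1 to 2 of them were at 0 per library labelled RageΔMye and 0 to 2 per RAW264.7 library. A 0 outside WT is therefore given as listed at 0, not as absence. Ager went against the genotype label, at 0.0194 to 0.478 TPM in WT and 93.1 to 166 TPM in the libraries labelled RageΔMye. Other genes also differed widely between these libraries, in either direction. On control diet Acvrl1 averaged 0.575 TPM in WT and 50.9 TPM in those labelled RageΔMye, and Timd4 3.46 and 0 TPM. What the Ager level says about the genotype was not tested. The summed level of 10 hepatocyte markers was 133831 to 168691 TPM in WT and 43348 to 61541 TPM in libraries labelled RageΔMye, and all 10 were listed at 0 in RAW264.7. Within WT, Xist was 0.00165 to 0.135 TPM on control diet and 17.8 to 27.3 TPM on alcohol, while 4 Y-linked genes summed to 11.3 to 16.6 TPM on control diet and to 0 to 0.0161 TPM on alcohol. In WT liver the effect of the diet and a difference in the sex of the animals cannot be told apart, and this bears on every WT comparison below. In the libraries labelled RageΔMye the Y-linked sum was 4.50, 4.47 and 3.16 TPM on the control diet against 0.297, 1.74 and 0.276 TPM on alcohol, with no overlap, while Xist, at 0 to 3.10 TPM, overlapped. The rise of Xist seen in WT was thus not seen there. Y-linked sums also ran from 0.184 to 4.16 TPM within RAW264.7, a single line, so low sums are weak evidence. Whether sex differed between the diets of the libraries labelled RageΔMye cannot be told from these values.

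In WT liver on control diet the 10 members spanned a wide range of levels per length. Clec4f, a lectin made by Kupffer cells that binds galactose-bearing glycans, was highest at 77.4 ± 1.29 TPM (SD, n = 4), above 89.0% of the tested genes. Cd5l, which encodes a secreted protein of macrophages that protects them from apoptosis, followed at 61.5 ± 7.15 TPM. Vsig4, a complement receptor that captures bacteria from the blood, came next at 25.2 ± 4.26 TPM. The ranges of these 3 genes did not overlap each other or that of the next gene. Below them came Csf1r at 15.2 ± 2.26, Folr2 at 11.7 ± 1.69, Clec1b at 11.55 ± 2.15, Cd163 at 8.51 ± 3.85, Marco at 6.62 ± 4.13, Adgre1 at 5.03 ± 1.67 and Timd4 at 3.46 ± 0.251 TPM. From Csf1r down, the range of each gene overlapped that of its neighbour in the order, although Csf1r lay wholly above Marco, Adgre1 and Timd4.

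The main question was whether the alcohol diet changed these genes within a genotype. In WT liver 1 of the 10 members passed the test, Clec1b, which rose, whereas 31.2% of all tested genes passed (3042 of 9747) and 13.3% passed as higher on alcohol. A gene passed at a Benjamini-Hochberg adjusted p under 0.05 in limma on log2(TPM + 1). The median standard error (SE) of the difference was 0.217 over the members against 0.143 over all tested genes. A change of a given size therefore passed less readily among the members, and a low share of passing members does not by itself show stable levels. All 10 members overlapped between the diets, while 30.8% of tested genes did not. The median difference (alcohol minus control) over the members was 0.13 on the log2 scale against -0.05 over all tested genes, and 7 of the 10 were above 0 against 45.1% of all genes. For each of the 10 members the 95% interval of the difference lay within a 2-fold change of TPM + 1 in either direction. The lowest bound was -0.97 and the highest 0.95. The added 1 TPM shrinks changes of low genes, so these intervals do not bound the change of TPM itself. All folds below are likewise of TPM + 1.

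**Figure D1:**
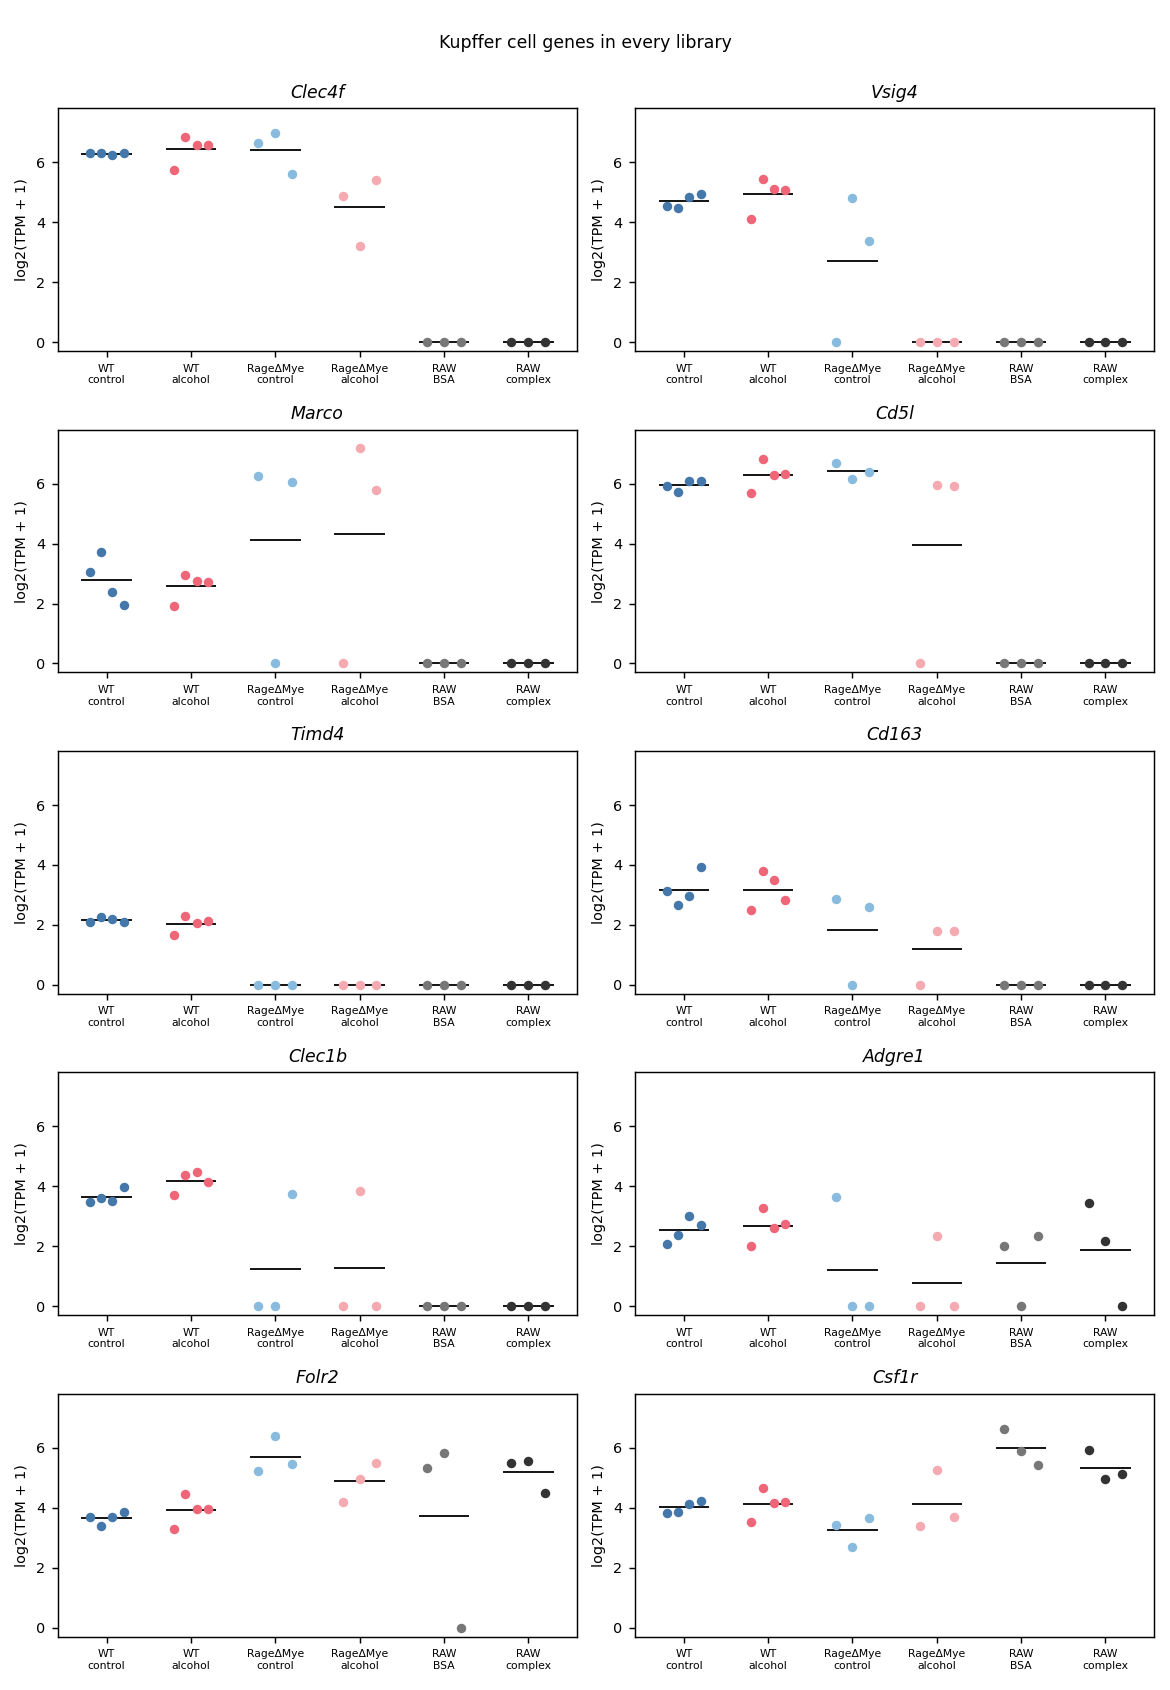
Level of each member in every library as log2(TPM + 1), by group, with replicates side by side in number order and a line at the group mean (WT n = 4, other groups n = 3). The WT groups overlap for all 10 genes, Vsig4 is at 0 in the 3 libraries labelled RageΔMye on alcohol, and only Adgre1, Folr2 and Csf1r are above 0 in RAW264.7.

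Clec4f (chromosome 6, 83644542 to 83656187, minus strand, mm10) was at 78.6, 77.5, 75.6 and 77.9 TPM in WT on the control diet and at 52.0, 114, 94.9 and 94.0 TPM on the alcohol diet. The control values lay close together, and the alcohol values fell on both sides of them. The difference was 0.14 (SE 0.204, adjusted p = 0.636, limma), with a 95% interval of the fold from 0.804 to 1.51. Vsig4 (chromosome X, 96247203 to 96293438, minus strand) was at 22.0, 21.3, 27.6 and 30.1 TPM on the control diet, and at 16.4, 42.6, 33.7 and 32.8 TPM on the alcohol diet. Its lowest and its highest WT libraries were both on alcohol, and the difference was 0.24 (SE 0.251, adjusted p = 0.497). Cd5l (chromosome 3, 87357881 to 87371073, plus strand) was at 59.8, 52.1, 66.9 and 67.2 TPM on the control diet, and at 50.9, 113, 76.8 and 78.1 TPM on the alcohol diet. Its lowest and its highest WT libraries were again alcohol replicates 1 and 2, and the difference was 0.32 (SE 0.208, adjusted p = 0.263).

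Among the other clearance receptors, Marco, a class A scavenger receptor for bacteria and particles (chromosome 1, 120474538 to 120505024, minus strand), was at 7.22, 12.2, 4.21 and 2.87 TPM on the control diet, and at 2.79, 6.82, 5.73 and 5.58 TPM on the alcohol diet. Its control libraries spread more than its alcohol libraries, and the difference was -0.18 (SE 0.354, adjusted p = 0.724). Cd163, the receptor for haemoglobin bound to haptoglobin (chromosome 6, 124304656 to 124330527, plus strand), was at 7.73, 5.37, 6.83 and 14.1 TPM on the control diet, and at 4.67, 13.1, 10.2 and 6.10 TPM on the alcohol diet. Its 2 groups covered nearly the same range, and the difference was -0.01 (SE 0.318, adjusted p = 0.981). Timd4, the gene of TIM4 (chromosome 11, 46810800 to 46844332, plus strand), was at 3.25, 3.77, 3.56 and 3.27 TPM on the control diet, and at 2.15, 3.90, 3.18 and 3.41 TPM on the alcohol diet. Of the 10 members it varied least over the 8 libraries, with a coefficient of variation of 16.2%, and its difference was -0.12 (SE 0.145, adjusted p = 0.565), with a 95% interval of the fold from 0.737 to 1.15.

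Clec1b encodes CLEC-2, the podoplanin receptor best known from platelets and also carried by Kupffer cells (chromosome 6, 129397297 to 129409335, plus strand). It was at 10.04, 11.1, 10.3 and 14.7 TPM on the control diet, and at 12.0, 19.7, 21.5 and 16.7 TPM on the alcohol diet. Of the 4 alcohol libraries 3 lay above all 4 control libraries. The difference of 0.54 (SE 0.185, 95% interval of the fold 1.10 to 1.93) passed narrowly, with an adjusted p of 0.0467 in limma. It passed without control replicate 4 (adjusted p = 0.0196) and without alcohol replicate 1 (adjusted p = 0.0161), but not when any other library was left out. Without control replicate 1, 2 or 3 the adjusted p was 0.113, 0.0853 and 0.112, and without alcohol replicate 2, 3 or 4 it was 0.112, 0.121 and 0.0798, with differences of 0.44 to 0.55. Over all alternatives the adjusted p ran from 0.0161 to 1, the last in a joint fit of both genotypes. Of its 5103 exon bases in GENCODE vM21, 184 are shared on the same strand with Clec9a, a dendritic cell lectin gene at 0.471 to 0.994 TPM in WT. Clec9a was at 3.71 to 22.4 TPM in the libraries labelled RageΔMye and listed at 0 in all 6 RAW264.7 libraries. Its part in the level of Clec1b was not tested.

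The remaining members are Adgre1, Folr2 and Csf1r. Adgre1 encodes F4/80, the standard surface marker of mouse macrophages (chromosome 17, 57358691 to 57483527, plus strand). It was at 3.24, 4.23, 7.10 and 5.54 TPM on the control diet, and at 3.04, 8.73, 5.06 and 5.70 TPM on the alcohol diet (difference 0.11, SE 0.268, adjusted p = 0.781). Folr2, the folate receptor β of resident macrophages (chromosome 7, 101839988 to 101857194, minus strand), was at 11.9, 9.44, 11.8 and 13.5 TPM on the control diet, and at 8.70, 21.1, 14.3 and 14.6 TPM on the alcohol diet (difference 0.26, SE 0.221, adjusted p = 0.403). Csf1r, the receptor on which macrophage survival depends, was at 13.2, 13.4, 16.4 and 17.9 TPM on the control diet, and at 10.4, 24.0, 16.8 and 17.4 TPM on the alcohol diet (difference 0.12, SE 0.214, adjusted p = 0.707). For all 3 genes the lowest and the highest of the alcohol libraries lay on either side of the control mean.

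**Figure D2:**
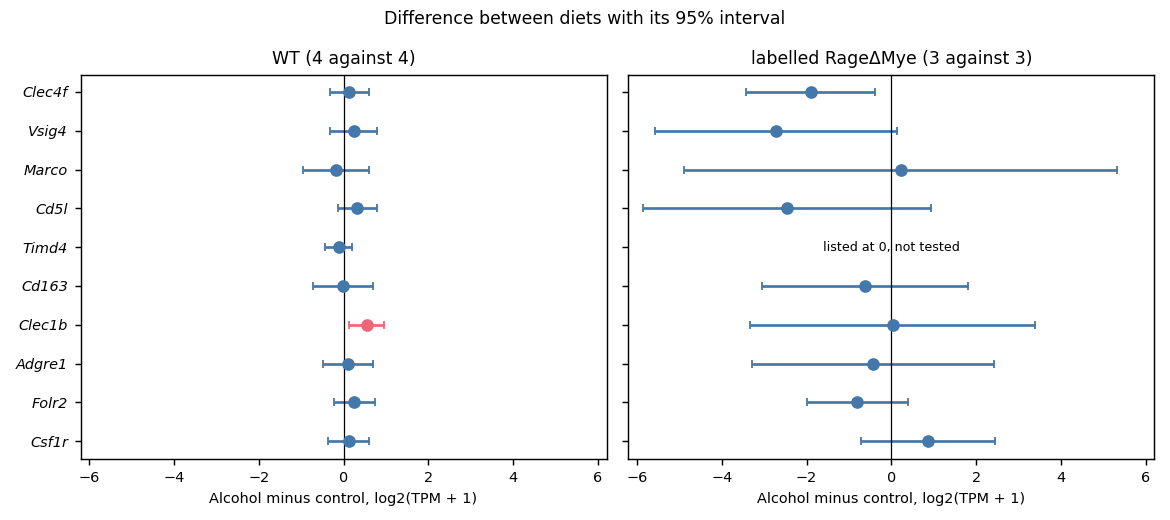
Difference between diets (alcohol minus control) on the log2(TPM + 1) scale for each member, with its 95% interval from limma, in WT (left) and in libraries labelled RageΔMye (right). Clec1b in WT, in red, is the member that passed, and the intervals are several times wider on the right, where the fitted value of Vsig4 depends on the added 1 TPM because its alcohol libraries are all at 0.

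Within the WT alcohol group the members moved together between libraries. Alcohol replicate 1 was the lowest of the 4 alcohol libraries for 10 of 10 members, as it was for 37.5% of all tested genes, and replicate 2 was the highest for 9 of 10, as it was for 37.4% of genes. Both held for 9 members and for 17.1% of genes. The ratio of replicate 2 to replicate 1 ran from 1.64 for Clec1b to 2.87 for Adgre1 with a median of 2.37, against a median of 1.12 over all genes. The summed level of the members was 217, 210, 230 and 247 TPM in the control libraries and 163, 367, 282 and 274 TPM in the alcohol libraries. The alcohol group thus held both the lowest and the highest sum of the 8 WT libraries.

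**Figure D3:**
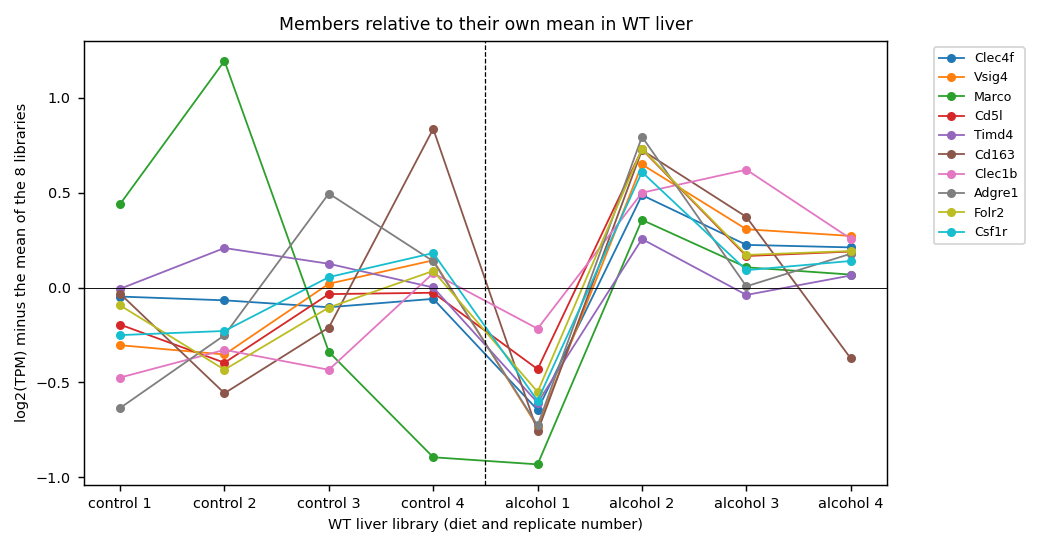
Level of each member in the 8 WT liver libraries as log2(TPM) minus its own mean over the 8. All 10 lines are at their lowest alcohol value in alcohol replicate 1, and 9 of 10 are at their highest alcohol value in alcohol replicate 2, while Marco and Cd163 follow the others least in the control libraries.

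Other cell markers were measured in the same libraries. In alcohol replicate 1, where the member sum was lowest, 10 recruited monocyte markers summed to 142 TPM, against 80.5, 54.7 and 78.6 TPM in alcohol replicates 2 to 4 and 17.0 to 22.5 TPM in the control libraries. Cd14, which Kupffer cells also carry, made up 104 of the 142 TPM, and without it the sums were 38.5, 25.1, 23.5 and 30.3 TPM in alcohol replicates 1 to 4. Of the 10 markers 5 were highest of the alcohol libraries in replicate 1, as were 7.41% of all tested genes. The 17 pan-macrophage genes summed to 292 TPM in alcohol replicate 1, to 467, 371 and 414 TPM in replicates 2 to 4, and to 262 to 290 TPM on control diet. The 12 sinusoidal endothelial markers summed to 131 TPM in alcohol replicate 1, to 258, 268 and 208 TPM in replicates 2 to 4, and to 85.5 to 212 TPM on control diet. All markers of these lists were above 0 in every WT library. The part of these other cells in the member levels was not tested. Without alcohol replicate 1 the median difference over the members became 0.35, and the differences became 0.37 for Clec4f (adjusted p = 0.0537), 0.51 for Vsig4 (adjusted p = 0.0521) and 0.52 for Cd5l (adjusted p = 0.0579). In that fit Clec1b was again the 1 member that passed, and 2055 genes passed in all. Without alcohol replicate 2, the other extreme, the median became -0.03, the differences became 0.00087 for Clec4f, 0.07 for Vsig4 and 0.14 for Cd5l (adjusted p = 0.998, 0.857 and 0.597), and no member passed.

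**Figure D4:**
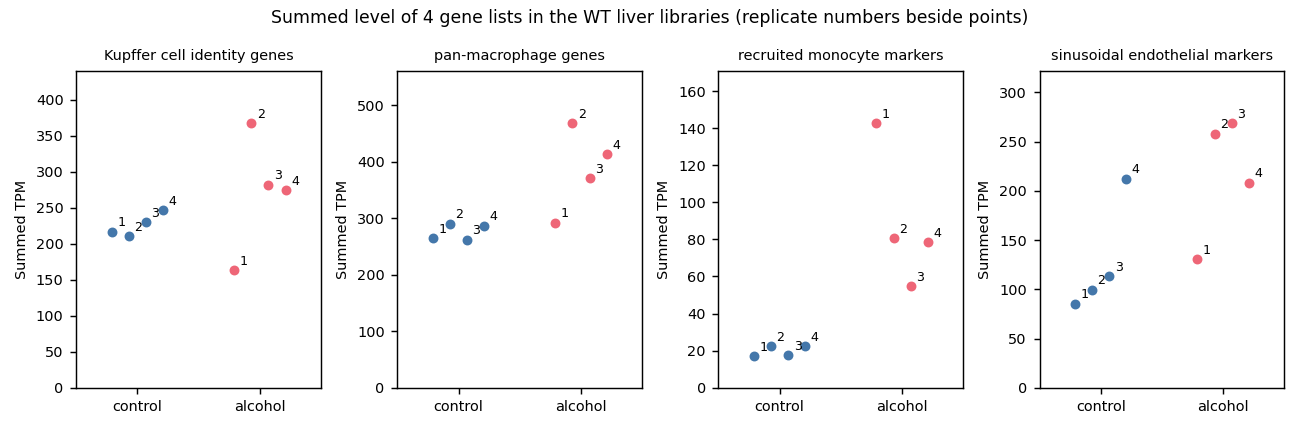
Summed TPM of 4 gene lists in the WT libraries by diet, 1 point per library with its replicate number. Alcohol replicate 1 is the lowest alcohol library for the Kupffer cell genes (163 TPM) and the highest for the recruited monocyte markers (142 TPM).

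Relative to Clec4f several members varied less than they did on their own. The coefficient of variation over the 8 WT libraries was 29.5% for the level of Vsig4 and 12.6% for its ratio to Clec4f. For Folr2 it went from 29.2% to 12.0%, for Csf1r from 25.1% to 11.5% and for Cd5l from 28.3% to 12.7%. Marco did not follow, with 51.0% for its level and 52.4% for its ratio. Clec4f made up 31.0% to 36.8% of the summed level of the members in every WT library. Across the 5710 genes whose WT mean reached 5 TPM, Vsig4 was the gene most like Clec4f over the 8 libraries (Pearson r = 0.920 on the log2 scale). Folr2 (r = 0.893), Csf1r (r = 0.888) and Cd5l (r = 0.867) ranked 3, 5 and 9, Adgre1 ranked 52, Clec1b 80, Cd163 116 and Marco 328, and Timd4 lay below the level required. The 5 other genes most like Clec4f were Tmem115 (r = 0.905), Arl2bp (0.889), the cyclooxygenase gene Ptgs1 (0.887) and the myeloid receptor genes Cd300ld (0.884) and Cd300c2 (0.881). After removal of each diet's mean the genes most like it included Mup19 (0.963), the properdin gene Cfp (0.960), Aven (0.958) and Atxn2 (0.951), and Vsig4 ranked 16. These values describe 8 libraries that share their preparation and in which alcohol replicates 1 and 2 are the extremes.

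Further genes known from Kupffer cells were read from the same WT fit. Of 11 tested 5 rose and 2 fell, with a median of 0.38. Which cells held these transcripts was not tested. Hmox1, for example, was at 411 to 640 TPM in RAW264.7 with BSA, so the list is not particular to Kupffer cells. C6, a component of the terminal complement complex, was at 183, 168, 232 and 179 TPM on the control diet, and at 6.91, 9.08, 10.2 and 6.61 TPM on the alcohol diet, a difference of -4.39 on the log2 scale (SE 0.157, adjusted p = 2.3e-08 in limma). The other fall, chosen after its values were seen, was of the iron exporter gene Slc40a1, at 24.9, 33.04, 37.6 and 22.6 TPM on the control diet against 12.7, 22.3, 15.1 and 15.9 TPM (difference -0.80, adjusted p = 0.0127). Hmox1, which degrades haem, rose from 31.5 ± 8.19 to 88.7 ± 11.4 TPM (difference 1.49, SE 0.184, adjusted p = 0.00036). Il18bp, the decoy of IL-18, rose from 14.004 ± 1.01 to 25.0 ± 4.02 TPM and the adhesion gene Vcam1 from 7.03 ± 2.25 to 13.7 ± 1.15 TPM (adjusted p = 0.00237 and 0.00425). The diets did not overlap for C6, Slc40a1, Hmox1, Il18bp or Vcam1. In the libraries labelled RageΔMye, C6 was at 89.4, 28.4 and 15.8 TPM on the control diet, and at 9.22, 7.89 and 0 TPM on the alcohol diet, and none of the 9 tested genes of the list passed there.

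The signals that maintain Kupffer cells and the factors they induce were given by lists. The share that passed was 40% of the ligands, 14.3% of the receptors and transducers and 37.5% of the factors, each on few genes. All genes of these lists that passed rose. Of all tested genes 31.2% passed in either direction and 13.3% as higher on alcohol. Of 5 tested niche ligands 2 rose, Tgfb1 from 1.01 ± 0.188 to 1.94 ± 0.284 TPM (adjusted p = 0.00647) and Il34 from 1.45 ± 0.0827 to 2.63 ± 0.889 TPM (adjusted p = 0.0319). Of 7 receptors and transducers 1 rose, the BMP receptor gene Acvrl1 (0.575 ± 0.147 to 1.15 ± 0.433 TPM, adjusted p = 0.0493). Acvrl1 was tested only because its alcohol mean reached 1 TPM. Of 8 transcription factors 3 rose. Id3 was at 19.9, 21.5, 24.4 and 28.2 TPM on the control diet, and at 69.3, 69.6, 59.9 and 98.5 TPM on the alcohol diet (difference 1.61, SE 0.166, adjusted p = 0.000105). Its relative Id1 rose from 2.97 ± 1.02 to 16.3 ± 7.73 TPM (2.06, adjusted p = 0.000538) and Irf8 from 2.31 ± 0.332 to 3.63 ± 0.693 TPM (0.48, adjusted p = 0.0266). ID proteins are general targets of BMP signalling and are made by endothelial cells and hepatocytes too, and which cells held these transcripts was not tested.

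Among genes that all macrophages share, 5 of 17 rose and none fell, with a median of 0.35. That is 29.4% of the list, and the sinusoidal endothelial markers passed at 27.3%, both near the 31.2% of all tested genes that passed in either direction (13.3% rose). They included the protease gene Lgmn (37.2 ± 4.78 to 66.3 ± 9.04 TPM, adjusted p = 0.00178), Fcer1g, an Fc receptor subunit (11.6 ± 1.46 to 17.3 ± 2.11 TPM, adjusted p = 0.011), the lysosomal Laptm5 and the integrin gene Itgam. Of 5 tested recruited monocyte markers 4 rose. Cd14, a co-receptor for endotoxin, was at 7.77, 7.52, 5.64 and 11.02 TPM on the control diet, and at 104, 55.4, 31.2 and 48.3 TPM on the alcohol diet (difference 2.66, SE 0.312, adjusted p = 0.000264). Plac8 rose from 8.80 ± 2.20 to 23.2 ± 5.99 TPM, and Itgax (0.378 ± 0.105 to 1.25 ± 0.187 TPM) and S100a4 (0.587 ± 0.240 to 1.44 ± 0.329 TPM) rose at low levels. Itgax and S100a4 were tested only because their alcohol mean reached 1 TPM, as were Itgam above and the neutrophil markers Ngp and Mmp8. For such genes the filter itself favours a rise, so these counts do not measure the lists as a whole. Of the 10 monocyte markers listed, only 5 reached the test. Of 7 neutrophil markers 5 rose, S100a9 among them (24.3 ± 8.81 to 54.2 ± 11.3 TPM, adjusted p = 0.00997), and of 6 lipid-associated macrophage markers 2 rose, Cd63 and Lgals3. Of 11 sinusoidal endothelial markers 3 rose, Lyve1 (3.77 ± 2.09 to 13.2 ± 1.88 TPM, adjusted p = 0.000979), Cdh5 and Pecam1. Of 3 tested lymphocyte markers Cd4 fell, and of 10 hepatocyte markers 2 rose and 1 fell.

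**Figure D5:**
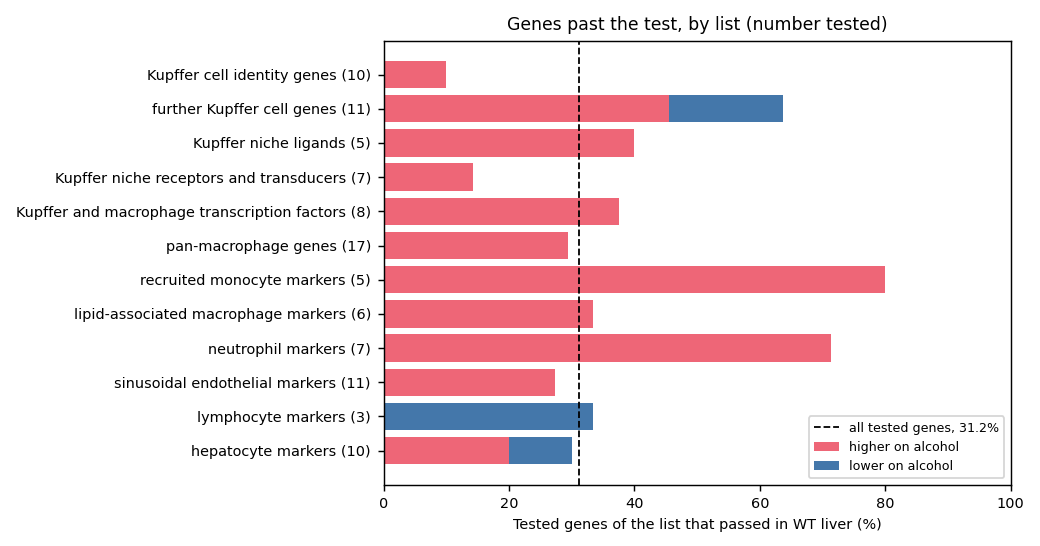
Share of the tested genes of each list that passed in WT liver, higher (red) or lower (blue) on alcohol, with the number tested in brackets and the share over all tested genes, 31.2%, as a dashed line. The 10 Kupffer cell identity genes stand at 10%, under the line, with a median SE of 0.217 against 0.143 over all tested genes. The further Kupffer cell genes (63.6%) and the recruited monocyte (80%) and neutrophil markers (71.4%) stand above it. On few genes, the niche ligands (40%, 2 of 5) and the transcription factors (37.5%, 3 of 8) lie near it, all as rises. The line counts both directions, and 13.3% of all tested genes passed as higher on alcohol. Some genes, such as Itgax, S100a4, Ngp and Mmp8, were tested only through their alcohol mean, which can raise the share of their lists.

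In the libraries labelled RageΔMye none of the 9 members tested passed in limma, while 0.0374% of all tested genes did (4 of 10689). At an unadjusted p under 0.05, 1 of the 9 members, Clec4f, and 747 of all genes passed. On simulated data with the spread of these libraries the fit recovered 3.03% of 2-fold, 21.1% of 4-fold and 47.6% of 8-fold changes. These were placed only in genes at higher mean levels, where most changes of such sizes would thus go uncalled. Changes of lower genes were not simulated. The median difference over the 9 members was -0.62, the value of Cd163, against 0.01 over all genes, and 3 of 9 were above 0 against 50.3% of all genes. Between the diets 2 members did not overlap, Clec4f and Cd5l, both lower on alcohol, as was true of 5.85% of all tested genes, with 11.7% not overlapping in either direction.

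Clec4f was at 99.2, 124 and 47.6 TPM on the control diet, and at 28.5, 8.32 and 41.1 TPM on the alcohol diet in these libraries. All 3 alcohol libraries lay under all 3 control libraries. The difference was -1.90 (SE 0.654, 95% interval -3.42 to -0.39), with an adjusted p of 0.613 in limma. It passed in the joint fit of all 14 liver libraries (adjusted p = 0.0486), which takes 1 spread for both genotypes, and over all alternatives the adjusted p was 0.0486 to 0.808. Cd5l was at 103, 70.9 and 82.7 TPM on the control diet, and at 0, 61.0 and 59.2 TPM on the alcohol diet. Without alcohol replicate 1, where it was listed at 0, its difference went from -2.46 (SE 1.47, adjusted p = 0.751) to -0.49. Vsig4 was at 0, 26.9 and 9.30 TPM on the control diet and listed at 0 in all 3 alcohol libraries (adjusted p = 0.672). With 1 control library also at 0, the groups of Vsig4 overlapped.

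The other members of these libraries gave no ordered picture. Marco was at 75.2, 0 and 66.2 TPM on the control diet, and at 0, 145 and 54.3 TPM on the alcohol diet, which is above its 2.79 to 12.2 TPM in WT wherever it was not listed at 0. Folr2 was at 36.2, 82.2 and 43.1 TPM on the control diet, and at 17.3, 30.2 and 43.7 TPM on the alcohol diet (difference -0.81, SE 0.513, adjusted p = 0.751), and Csf1r at 9.70, 5.48 and 11.6 TPM and at 9.49, 37.4 and 12.0 TPM (0.86, SE 0.683, adjusted p = 0.751). Cd163 was at 6.32, 0 and 5.03 TPM on the control diet, and at 0, 2.51 and 2.48 TPM on the alcohol diet. Clec1b was above 0 in 1 library per diet, at 12.5 and 13.3 TPM, and Adgre1 likewise at 11.6 and 4.11 TPM. Timd4 was listed at 0 in all 6 libraries and was not tested. Of the 60 member values 23 were at 0, against 29.0% of the values of the 5626 genes with the same range of WT levels. Alcohol replicate 1 listed only 3 members above 0, Clec4f, Folr2 and Csf1r, and its 17 pan-macrophage genes summed to 149 TPM against 222 to 419 TPM in the other 5 libraries.

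Whether the diet effect differed between the genotypes was tested in 1 fit of all 14 liver libraries. None of the 10 members passed in limma (2 at an unadjusted p under 0.05, Clec4f and Vsig4), while 3.84% of all tested genes did (463 of 12069, 250 higher and 213 lower, or 182 higher and 280 lower when the libraries were centred on their medians). For Clec4f the difference of differences was -2.04 (SE 0.668, adjusted p = 0.125) and for Folr2 -1.06 (SE 0.526, adjusted p = 0.296). Vsig4 had an adjusted p of 0.187. Timd4 is listed at 0 in all libraries labelled RageΔMye, so its value there is only the WT effect with its sign turned. Single libraries moved these calls: Clec4f passed without the RageΔMye alcohol replicate 3 (-2.49, adjusted p = 0.0381) and Vsig4 without the RageΔMye control replicate 1 (adjusted p = 0.000501). Over all alternatives the adjusted p was 0.0381 to 0.217 for Clec4f and 0.000501 to 0.292 for Vsig4. The genotypes differ in replicate spread, which this fit takes as equal, and 71.1% of its calls on data simulated with the unequal spread were false.

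RAW264.7 cells, taken as macrophage-like cells without Kupffer identity, listed 7 of the 10 members at 0 in all 6 libraries. These were Clec4f, Vsig4, Marco, Cd5l, Timd4, Cd163 and Clec1b, which include the 3 highest members of WT liver. Of the 5626 genes with WT levels in the same range, 3.31 to 83.0 TPM, 13.3% were at 0 in all 6. The 3 members above 0 were Csf1r, Folr2 and Adgre1. Of the 17 pan-macrophage genes 5 were also listed at 0 in every library with BSA, and 5 in every library with the complex. Being listed at 0 here is thus not particular to Kupffer cell genes. Csf1r (chromosome 18, 61100598 to 61132149, plus strand) was at 97.7, 58.6 and 42.2 TPM with BSA and at 59.4, 29.8 and 33.7 TPM with the complex. Folr2 was at 39.4, 55.5 and 0 TPM with BSA and at 43.7, 45.9 and 21.5 TPM with the complex. Adgre1 was at 3.01, 0 and 4.05 TPM with BSA and at 9.94, 3.47 and 0 TPM with the complex. The groups of each gene overlapped.

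None of these 3 passed between BSA and the complex in limma, and none had an unadjusted p under 0.05, while 0.18% of all tested genes passed (19 of 10559) and 13.5% did not overlap. The difference (complex minus BSA) was -0.66 for Csf1r (SE 0.401, 95% interval -1.60 to 0.29, adjusted p = 0.710). It was 1.46 for Folr2 (SE 1.45, adjusted p = 0.755) and 0.42 for Adgre1 (SE 1.07, adjusted p = 0.931), and both changed sign when single libraries were left out. Of the 17 pan-macrophage genes 5 to 6 were listed at 0 per RAW264.7 library. These genes summed to 1288 to 1852 TPM and the recruited monocyte markers to 519 to 801 TPM, both above every liver library. The tables are separate and no test was made between them. Most of the monocyte sum was S100a4 (mean 426 TPM with BSA, 525 TPM with the complex) and Cd14 (182 and 197 TPM). Of the 10 monocyte markers 4 to 6 were listed at 0 per library, and Ly6c2, Chil3 and Plac8 in all 6 libraries.

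Exon overlaps bear on 2 of the 3 members seen in RAW264.7. Of the 1546 exon bases of Folr2, 975 (63.1%) are overlapped on the opposite strand by Gm10602, which has no row in the table. Of the 5774 exon bases of Csf1r, 873 (15.1%) are overlapped on the opposite strand by Hmgxb3, at 1.26 to 2.06 TPM in WT, 5.20 to 13.8 TPM in those labelled RageΔMye and, for RAW264.7, 24.4 to 55.2 TPM. Adgre1 has no such overlap. All 11 values of Folr2 above 0 outside WT were whole multiples of the most frequent value of their library, 1 to 4 times it in libraries labelled RageΔMye and 2 to 5 times it in RAW264.7, within 0.005, and no value of another member was. Genes outside the members share such values. Itgax, for example, was at 18.1 TPM, the most frequent value, in RageΔMye control replicate 1. Whether the values outside WT allow for gene length was not tested. Whether the counting used strand is not given in the sources used here, and the part of the opposite strand in the level of Folr2 was not tested.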

How the data were processed

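Gene expression was measured by RNA sequencing in 20 mouse libraries made with a stranded mRNA kit, per the labels' protocols. The submitters' processing notes name mm10 as the build; aligner, quantifier, strand setting and annotation: not given in the sources used here. The authors deposited 1 table for liver and 1 for RAW264.7, whose values were read as TPM because every column summed to nearly the same total, the one that defines TPM; the headers name no unit. TPM keeps no depth, so no counting interval is given, and precision rests on the number of libraries. All columns were used.

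Values were taken as log2(TPM + 1). Genes whose mean reached 1 TPM in any fitted group were tested with limma 3.58.1 (intensity trend, R 4.3.3), with Benjamini-Hochberg adjustment over all genes tested and a threshold of 0.05. The diet effect was fitted within each genotype, its difference between genotypes in all 14 liver libraries, and RAW264.7 on its own. Fold changes are of TPM + 1 and understate changes of low genes. On data simulated with the measured spread and 200 changed genes, the WT fit recovered 83.1% of 2-fold changes with 6.93% of calls false, over 9747 genes. The changed genes were drawn only from genes at higher mean levels. The recovery therefore does not cover low genes, among them Timd4, Adgre1 and Marco in WT. The false share was 11.3% for the libraries labelled RageΔMye (10689 genes) and 7.95% for RAW264.7 (10559 genes).

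The members and all lists were chosen with earlier results of these data known. The text names the members, up to 4 passing genes per list with the smallest adjusted p in WT, the 5 genes most like Clec4f overall and within diets, and genes that share exons with a member. A gene that this rule selects is not reported here. Exons and positions came from GENCODE vM21 (GRCm38) and promoters from RefSeq. Alternatives were pseudocounts of 0.1 and 0.01, no filter, a filter at 5 TPM, quantile normalization, a joint fit, a replicate block, a threshold of 0.01 and omission of each library. Median centring of the libraries, over genes with at least 5 TPM, was chosen after seeing the data.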

Additional observations from a re-analysis of the deposited data

Results flagged for a closer look

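None of the 20 WT groups of 4 libraries of the members held a library far from the other 3. Over the 45 genes examined, 7 of 90 groups did, by a gap that exceeded Dixon's critical value, where chance gives about 1 in 20. On control diet the highest library stood apart for Il18bp (15.5 TPM), Cd63 (11.8 TPM), Lyve1 (6.89 TPM) and Pecam1 (14.5 TPM). On alcohol the lowest library stood apart for Itgam (0.781 TPM) and Cdh5 (7.71 TPM), and the highest for the Y-linked Eif2s3y (0.0161 TPM).

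Of these 45 genes, 2 with values in both genotypes passed for the difference of the diet effect between them, in a fit of which 71.1% of calls on simulated data were false. For the Y-linked Ddx3y it was 1.73 (adjusted p = 0.0076 in limma). For Cyp2e1, an ethanol-oxidising cytochrome, it was 1.45 (adjusted p = 0.0127): every WT alcohol library lay below every WT control library, and every RageΔMye alcohol library above every RageΔMye control library. Lyve1 also passed, at -1.64 (adjusted p = 0.0389), but it is listed at 0 in all 6 libraries labelled RageΔMye, so this is only the WT effect with its sign turned and shows no difference between the genotypes.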

How the results depend on the processing

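In WT liver 3042 genes passed, against 1881 with a filter at 5 TPM, 1450 at an adjusted p under 0.01, 337 in the joint fit and 2055 to 3469 when single libraries were left out. The 1 member that passed became 0 without a filter, under 0.01 and in the joint fit, and 0 to 1 when single libraries were left out. In libraries labelled RageΔMye 4 genes passed, against 0 with a pseudocount of 0.01, under 0.01 and with the replicate block, 9 with a filter at 5 TPM, 7 with quantile normalization or median centring, 657 in the joint fit, where 1 member passed, and 0 to 5 when single libraries were left out. For the difference between genotypes 463 genes passed, against 219 under 0.01 and 282 to 899 when single libraries were left out, with 0 to 1 members. Median centring moved the median of all genes there from 0.05 to -0.18. In RAW264.7 19 genes passed, against 7 under 0.01, 0 with the replicate block and 2 to 9 when single libraries were left out. The same-numbered samples did not deviate together, with correlations of -0.02 to 0.02, and the block changed no member's call. In libraries with many values at 0, correlations this low cannot show whether the numbers pair the samples. The causes of these changes were not tested.

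Of the member values under alternatives, 130 of 149 in WT, 114 of 123 in libraries labelled RageΔMye, 188 of 199 for the difference between genotypes and 35 of 38 in RAW264.7 kept their direction and their side of the threshold. Cd163 in WT became 0.035 with quantile normalization and 0.025 with median centring, Clec1b in libraries labelled RageΔMye -0.031 with quantile normalization and the Timd4 difference between genotypes -0.11 with median centring. When single libraries were left out, signs changed in WT for Adgre1 (-0.10 to 0.33), Marco (-0.46 to 0.13), Cd163 (-0.23 to 0.24), Timd4 (-0.20 to 0.0094) and Csf1r (-0.055 to 0.32). They changed in libraries labelled RageΔMye for Clec1b (-1.25 to 1.28), Adgre1 (-1.22 to 0.78) and Marco (-1.83 to 2.38). They changed for the difference between genotypes for Timd4 (-0.0094 to 0.20), Adgre1 (-1.33 to 0.67), Marco (-1.65 to 2.57) and Clec1b (-1.79 to 0.74), and in RAW264.7 for Adgre1 (-0.37 to 1.36) and Folr2 (-0.40 to 2.51). None of these values passed the test.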
